A study of Porphyridium purpureum with 12 samples.

Results

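The second transition of a nitrate depletion course was examined in the red microalga Porphyridium purpureum (strain 1380/1A), that is, late nitrogen depletion (LND) against nitrogen limitation (NL). The comparison takes the 3 libraries at a residual NaNO3 of 0.3 g/L (LND) against the 6 libraries at 0.6 g/L (NL1) and 0.5 g/L (NL2), pooled as 1 group, so it uses 9 of the 12 libraries of the series and all genes of the count table. The other 3 libraries, from nitrogen-replete (NR) cells at 1.5 g/L, did not enter the fit. All groups are cells of this strain grown in photobioreactors in the same medium, and the levels are successive time points of that culture, with NL1 and NL2 ahead of the stationary phase and LND in it. The effects of nitrate, of time in culture and of growth phase therefore cannot be told apart. Per the labels, the 3 libraries of a level are technical replicates made from 1 biological sample, whereas a caption of the study speaks of biological replicates. P-values are read here as a measure of the spread between libraries only, which may be technical.

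Nitrogen starvation is a well-studied stress of microalgae. Cells deprived of nitrogen draw on internal nitrogen stores, cut back the nitrogen-rich photosynthetic apparatus and direct fixed carbon into storage and wall polymers. In Porphyridium, light is harvested by phycobilisomes and by chlorophyll-binding antenna proteins at photosystem I, the storage polymer is floridean starch, kept outside the plastid, and the cells secrete a sulfated exopolysaccharide built from nucleotide sugars. Nitrate enters such cells through high-affinity transporters and is reduced by nitrate reductase and then nitrite reductase to ammonium, which glutamine synthetase and related enzymes fix into amino acids.

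The depth was similar in both groups. Library totals were 21112645, 19133359 and 29725946 counts in LND, against 18620362 to 30556820 counts in NL. Of the 9898 genes in the table, 9627 had a count in these 9 libraries and 9153 had enough counts to be tested. Values per library are library-size-scaled counts (CPM) with TMM scaling (trimmed mean of M-values), a scaling that assumes that most genes do not change. They are not divided by gene length, so levels are compared between groups of libraries and not between genes. Strand settings of the counting are not stated, and reads of overlapping genes on opposite strands may have been counted together.

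Expression differed in both directions between the stages. In LND, 596 genes were higher and 539 were lower than in NL at an adjusted p under 0.01 (quasi-likelihood test of edgeR, adjusted by Benjamini-Hochberg) and a change of at least 2-fold. These are 6.51% and 5.89% of the genes tested, and 12.4% in either direction, which are the background shares against which the gene groups are set. Libraries of LND and NL did not overlap in CPM for 595 of the higher and 524 of the lower genes. Such separation was common among all genes tested. LND lay above every NL library in 1900 of them (20.8%) and below every NL library in 1760 (19.2%). Increases outnumbered decreases at each size counted. On the log2 scale, a fold change (log2FC) beyond 2 in size was reached by 107 of the higher and 61 of the lower genes, beyond 3 by 26 and 10, and beyond 4 by 7 and 2. Taken against NL1 alone, LND had 583 genes higher and 503 lower (6.45% and 5.56% of those tested), and against NL2 alone 627 higher and 583 lower (6.94% and 6.46%), comparisons that share the LND libraries. These counts rest on the TMM scaling, and their dependence on it is given after the gene groups.

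**Figure D1:**
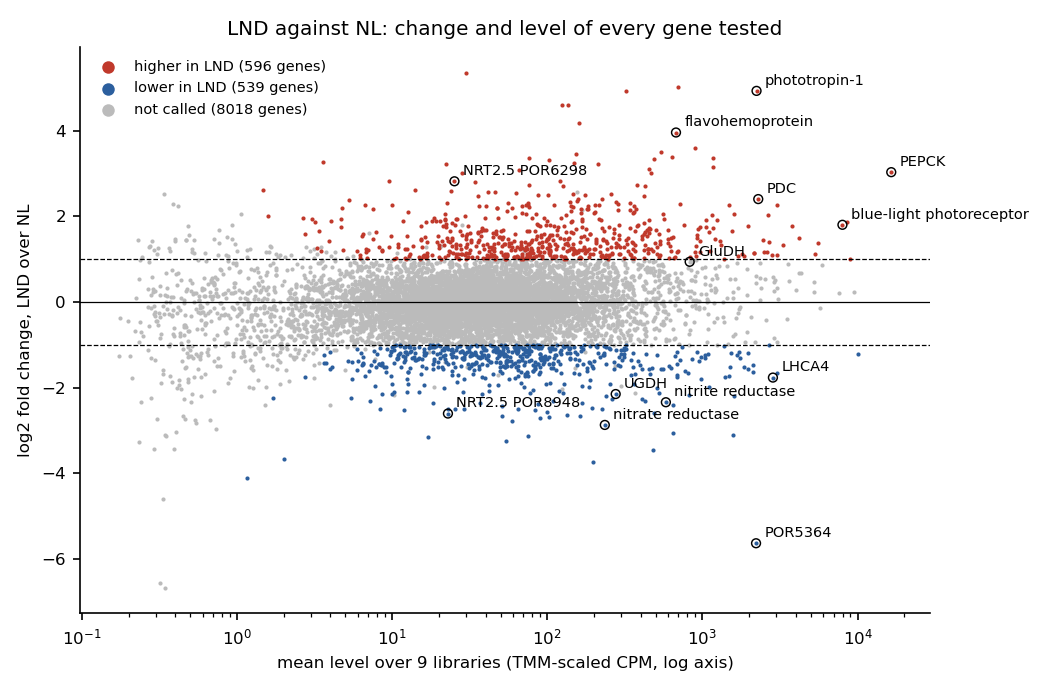
Log2 fold change of LND over NL (vertical axis) against the mean level over the 9 libraries in TMM-scaled CPM (horizontal log axis) for each of the 9153 genes tested. Red points are the 596 genes called higher and blue points the 539 called lower in LND, grey points were not called, and the dashed lines mark a 2-fold change. Phosphoenolpyruvate carboxykinase stands at the far right among the higher genes, and POR5364 lies lowest of the called genes.

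By counts, which are not corrected for length, the most abundant transcript of the LND libraries was that of phosphoenolpyruvate carboxykinase (GTP-dependent, POR8724), an enzyme that interconverts oxaloacetate and phosphoenolpyruvate at the entry of gluconeogenesis. It had 40029, 40149 and 39057 CPM in LND, against 3875 to 6033 CPM (median 4904) in NL. The LND libraries lay close together and far above every NL library, and the change was 8.18-fold (log2FC 3.03 ± 0.14 SE, adjusted p = 7.16e-12). The NR libraries, at 10199, 9808 and 2059 CPM, fell on both sides of the NL range and below LND. This gene alone held 3.45% of all counts in LND and 0.522% in NL, where it ranked 7. Of the 14 genes that were among the 10 most abundant of either stage, 6 were among them in both, 7 were higher in LND and 1 was lower.

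A pair of blue-light receptor genes rose as well. Phototropin-1 (POR7844), named after a plant kinase that is activated by blue light, had 6511, 6576 and 5767 CPM in LND and 154 to 259 CPM (median 208) in NL. The rise was 30.5-fold (log2FC 4.93 ± 0.17, adjusted p = 1.25e-12), the fourth-largest among called genes at 5 CPM or more whose libraries do not overlap. A gene annotated as blue-light photoreceptor (POR2343), the third most abundant transcript of LND, had 15475, 15639 and 14602 CPM in LND against 3201 to 5631 CPM (median 4371) in NL (log2FC 1.80 ± 0.15, adjusted p = 4.19e-08). Among the 9 libraries, those of NL2 were the lowest in both genes, at 154 to 181 CPM for phototropin-1 and 3201 to 3724 CPM for the photoreceptor. The genes differed in NR. Phototropin-1 had 577, 489 and 275 CPM there, above every NL library. The photoreceptor had 3389, 2374 and 1807 CPM, which reached below NL2.

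Flavohemoproteins, which detoxify nitric oxide in bacteria and yeast, were strongly raised. POR5270 had 1743, 1931 and 1712 CPM in LND and 98.1 to 137 CPM (median 111) in NL, a 15.6-fold rise (log2FC 3.96 ± 0.12, adjusted p = 8.57e-14). POR7105 had 2164, 2480.5 and 2285 CPM in LND and 149 to 240.2 CPM (median 196) in NL, a 12.03-fold rise (log2FC 3.59 ± 0.13, adjusted p = 1.03e-12). For POR7105 the NR libraries, at 692 to 1138 CPM, were also above NL.

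Both genes belong to a list of genes with a product name among those the study found most changed on these libraries. Phosphoenolpyruvate carboxykinase, phototropin-1 and the blue-light photoreceptor are in it too. The list is therefore not independent evidence of a direction. In LND, 26 of its 31 members were higher and 0 lower, with a median log2FC of 2.40 beside -0.04 over all genes tested. All 4 small heat shock proteins of the list, chaperones that hold unfolding proteins, rose, with log2FC of 2.17 to 2.52. The 4 retroelement polyproteins, remnants of mobile elements, were not called, and their log2FC ran from -0.32 to 0.38. The remaining member that was not called, an SH3 domain-containing protein (POR9133), had 349.5, 393 and 304 CPM in LND. In NL it had 216 CPM in NL1 replicate 2 and 21.7 to 31.6 CPM in the other libraries. Its log2FC was 2.58 ± 0.84 with an adjusted p of 0.0398, and without that library it was 3.71 with an adjusted p of 9.68e-13.

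Among the genes without a product name, POR6842, the second most abundant transcript of LND, had 16143, 18195 and 14989 CPM in LND and 4239.7 to 5029 CPM in NL (log2FC 1.86 ± 0.10, adjusted p = 1.14e-10). POR7271, the fourth most abundant in both stages, had 14813, 14135 and 11449.6 CPM in LND and 5416 to 8492 CPM in NL. Its log2FC of 1.01 ± 0.15 (adjusted p = 1.81e-05) lay at the 2-fold limit, and leaving out LND replicate 1 or 2, or any of the NL2 libraries, took it to between 0.94 and 0.98. Of the genes called lower at 5 CPM or more whose libraries do not overlap, POR5364 changed most. It had 77.1, 62.9 and 59.1 CPM in LND against 2856 to 4047 CPM (median 3247) in NL, a 49.6-fold decrease (log2FC -5.63 ± 0.17, adjusted p = 8.57e-14). The NR libraries had 69.4, 62.6 and 56.9 CPM on the same scale, so its high values were those of NL. POR1957 had 5684, 5562 and 4868 CPM in LND, where it ranked 20, against 10764 to 14573 CPM (median 12599) in NL, where it was the most abundant transcript (log2FC -1.21 ± 0.13, adjusted p = 3.72e-07).

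Genes of nitrate uptake and assimilation mostly fell on the way to LND. Of 10 genes, which the study listed as changed on these libraries, 1 was higher, 6 were lower and 3 were not called, with a median log2FC of -1.45 beside -0.04 over all genes. Nitrite reductase and a pair of nitrate reductase genes were among the lower ones, while 1 transporter rose.

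The 4 genes of the high-affinity nitrate transporter NRT2.5 did not move together. POR6298 had 58.6, 63.9 and 54.2 CPM in LND against 5.70 to 9.75 CPM (median 8.58) in NL, a 7.06-fold rise (log2FC 2.82 ± 0.16, adjusted p = 1.04e-10). The NR libraries, at 22.6 to 35.6 CPM, were also above NL. POR8948 went the other way, with 4.29, 3.53 and 7.62 CPM in LND against 20.98 to 35.9 CPM (median 34.8) in NL, a 6.08-fold decrease (log2FC -2.60 ± 0.25, adjusted p = 1.94e-07). The ratio of POR6298 counts to POR8948 counts, a measure that no library scaling can move, was 7.12 to 18.1 in LND and 0.169 to 0.447 in NL. POR1427 fell as well, with 3.96, 2.80 and 5.41 CPM in LND and 10.3 to 13.6 CPM (median 11.4) in NL (log2FC -1.51 ± 0.24, adjusted p = 5.53e-05). The libraries overlapped for POR7993, with 23.1, 20.9 and 27.8 CPM in LND and 12.2 to 29.99 CPM (median 18.3) in NL (log2FC 0.31 ± 0.23, adjusted p = 0.290, and -0.00 on library totals).

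Nitrate reductase, which turns nitrate into nitrite, is encoded by 3 listed genes. POR6787 fell 7.31-fold, to 35.8, 39.0 and 60.2 CPM in LND, against 264 to 375 CPM (median 337) in NL (log2FC -2.87 ± 0.17, adjusted p = 6.18e-10). POR8251 had 16.4, 17.3 and 23.2 CPM in LND against 92.5 to 141 CPM (median 130.4) in NL, a 6.55-fold decrease (log2FC -2.71 ± 0.16, adjusted p = 2.59e-10). Groups did not overlap in either gene. POR3077 had 16.4, 14.8 and 25.7 CPM in LND and 18.4 to 56.4 CPM (median 27.0) in NL, with overlapping libraries and no call (log2FC -0.77 ± 0.37, adjusted p = 0.121).

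Nitrite reductase (POR2445), the plastid enzyme that makes ammonium from nitrite, had 144, 146 and 180.1 CPM in LND against 721 to 876 CPM (median 791) in NL. It fell 5.06-fold (log2FC -2.34 ± 0.12, adjusted p = 3.72e-11). Glutamine synthetase (POR7605), which fixes ammonium onto glutamate, fell 2.63-fold, with 110.3, 151 and 124 CPM in LND and 235 to 403 CPM (median 359) in NL (log2FC -1.40 ± 0.16, adjusted p = 3.26e-06). Glutamate dehydrogenase (POR3485), which can release ammonium from glutamate or fix it, had 1205, 1251 and 1190.0 CPM in LND and 535 to 680.2 CPM (median 658) in NL. Every LND library was above every NL library, but the log2FC of 0.94 ± 0.10 (adjusted p = 3.18e-07) stayed under the 2-fold limit. The count ratio of glutamate dehydrogenase to glutamine synthetase was 8.30 to 10.9 in LND and 1.67 to 2.27 in NL.

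**Figure D2:**
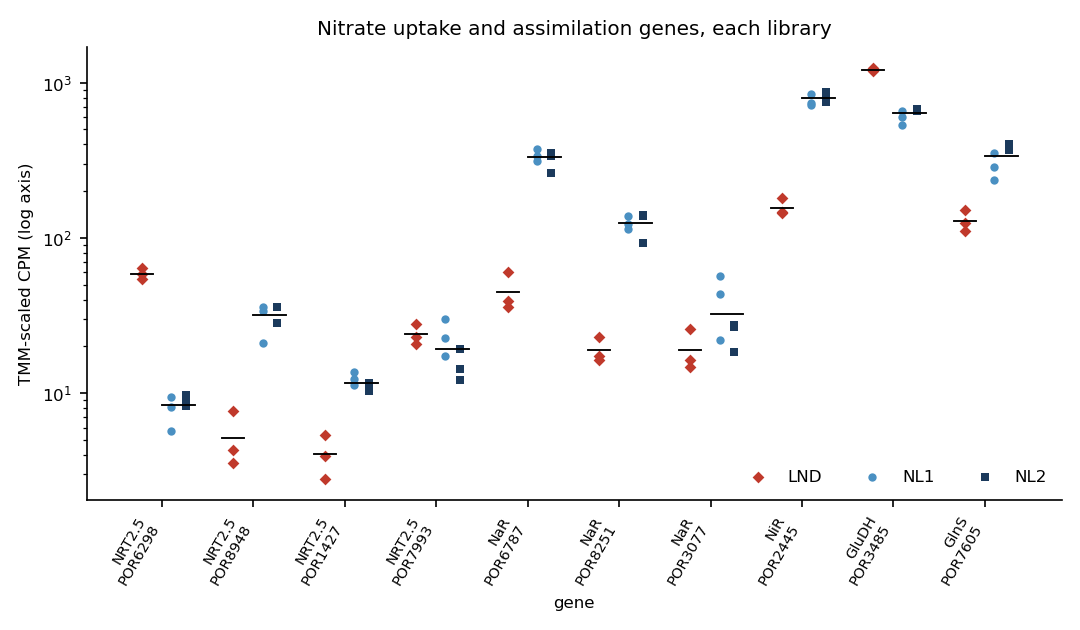
TMM-scaled CPM (log axis) of the 10 genes of nitrate uptake and assimilation in each library, with LND as red diamonds, NL1 as blue circles and NL2 as dark squares, and short lines at the mean of LND and of NL. LND and NL do not overlap in 8 of the genes, and overlap in POR7993 and POR3077. Of all genes tested, LND lay above every NL library in 20.8% and below every NL library in 19.2%.

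Genes of amino acid metabolism outside this list were named among the study's most changed genes. Asparagine synthetase (aspartate-ammonia ligase, POR2648), which makes the nitrogen-rich amide asparagine, had 1471, 1144 and 1059 CPM in LND and 103 to 140.3 CPM (median 118) in NL, a 10.1-fold rise (log2FC 3.33 ± 0.12, adjusted p = 6.91e-13). It was also high in the NR libraries, at 926, 862 and 752 CPM, so that its low values were those of NL. 4-Aminobutyrate aminotransferase (POR3240), which breaks down the amino acid GABA, rose 4.13-fold, with 3080.0, 3201 and 3439.7 CPM in LND and 705 to 849.6 CPM (median 789) in NL (log2FC 2.05 ± 0.09, adjusted p = 1.07e-11).

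Nearly all listed photosynthesis genes fell from NL to LND. Of 13 listed genes, again chosen by the study on these libraries, 12 were lower, 0 higher and 1 not called, against 5.89% lower among all genes tested. The median log2FC was -1.28 and the called members lay between -1.76 and -1.01, so no member reached the size of the nitrate reductase change.

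In photosystem II, the decrease covered the proteins that stabilize the oxygen-evolving cluster. psbO (POR0335) had 779, 857 and 1015 CPM in LND and 1711 to 2525 CPM (median 2049) in NL, a 2.34-fold decrease (log2FC -1.23 ± 0.14, adjusted p = 1.66e-06). psbQ (POR3050) had 613, 614 and 537 CPM in LND and 1358 to 2405 CPM (median 2077) in NL, a 3.29-fold decrease (log2FC -1.72 ± 0.19, adjusted p = 1.98e-06). In NL the values of psbQ spread more than in LND, since NL1 replicates 1 and 2, at 1391 and 1358 CPM, were below the other 4 libraries at 2049.9 to 2405 CPM. They were still above all LND libraries.

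Around photosystem I, psaO (POR2912), a small subunit of its core, had 207, 257 and 361 CPM in LND and 517 to 1121 CPM (median 905) in NL (log2FC -1.70 ± 0.27, adjusted p = 0.000450). Against NL2 alone it was not called, with a log2FC of -1.67 and an adjusted p of 0.0177, as NL2 replicate 3 was at 517 CPM. The antenna gene LHCA4 (POR6098), whose protein binds chlorophyll and passes light energy to photosystem I, had the largest decrease of the 13. It had 965, 1102 and 1222 CPM in LND and 2436 to 4651 CPM (median 4119) in NL, a 3.40-fold decrease (log2FC -1.76 ± 0.21, adjusted p = 7.36e-06). Here too NL1 replicates 1 and 2, at 2436 and 2699.7 CPM, were the lowest of NL, and whether these libraries stand apart for a technical reason was not tested.

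The electron carriers differed between themselves. Ferredoxin-NADP reductase (petH, POR1681), which makes NADPH at the end of the chain, fell 2.53-fold, with 408, 445 and 429.9 CPM in LND and 796 to 1245 CPM (median 1174) in NL (log2FC -1.34 ± 0.15, adjusted p = 7.03e-07). The Rieske iron-sulfur subunit of the cytochrome b6f complex (petC, POR2665) was the member that was not called, with 2153, 2502 and 2559 CPM in LND and 2128 to 2474 CPM (median 2346) in NL. Its log2FC was 0.04 ± 0.10 with an adjusted p of 0.765, and -0.26 on library totals, which is close to the shift of all genes under that scaling. The decreases of the list are relative to NL and not to NR. In the NR libraries psbO had 435 to 737 CPM and LHCA4 POR6098 365 to 811 CPM, below every LND library. The psbP gene (POR2049) went the other way, with 43.0 to 45.9 CPM in NR and 30.8 to 36.8 CPM in LND. For the listed genes psaO, petF, petH and atpG, NR and LND values overlapped.

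**Figure D3:**
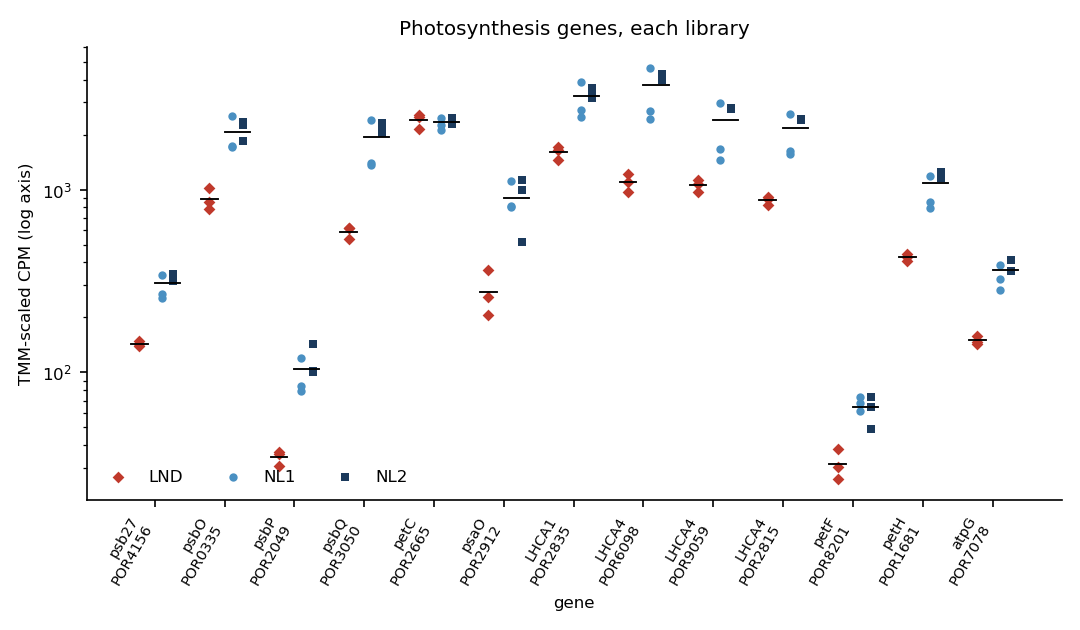
TMM-scaled CPM (log axis) of 13 photosynthesis genes in each library, with LND as red diamonds, NL1 as blue circles and NL2 as dark squares, and short lines at the mean of LND and of NL. LND lies below NL without overlap in 12 genes, beside 19.2% of all genes tested, and both overlap in petC.

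Central carbon metabolism did not move as a whole. Of 20 genes of glycolysis and gluconeogenesis, 5 were higher, 4 lower and 11 not called (median log2FC -0.14), of 18 genes of the respiratory chain and proton pumps 4 were higher, 1 lower and 13 not called (median -0.22), and of 7 genes of the pentose phosphate pathway 1 was higher, 3 lower and 3 not called (median -0.62). The gene atpG (POR7078, log2FC -1.28, called lower), which the study also lists with the respiratory genes, was counted here with photosynthesis only. The study chose the carbon lists on the same libraries. Within each, single steps and single isoforms changed by more than 2-fold in opposite directions.

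Of the genes that make or use pyruvate, some rose. Pyruvate decarboxylase POR0764, which turns pyruvate into acetaldehyde, had 5115, 5153 and 4689.7 CPM in LND and 792 to 1042 CPM (median 955) in NL, a 5.29-fold rise (log2FC 2.40 ± 0.10, adjusted p = 4.00e-12). NADP-dependent malic enzyme (POR0986), which makes pyruvate and NADPH from malate, rose 10.3-fold, with 2739.5, 2788 and 3339.5 CPM in LND and 167 to 352 CPM (median 306) in NL (log2FC 3.36 ± 0.20, adjusted p = 3.02e-08). This gene comes from the list of product-named changed genes and not from the carbon lists. An alcohol dehydrogenase (POR6665), an enzyme that reduces acetaldehyde to ethanol, had 4381, 5089 and 7082 CPM in LND and 987 to 2848 CPM (median 2421) in NL (log2FC 1.32 ± 0.28, adjusted p = 0.00398). The second pyruvate decarboxylase gene (POR6810) was not called, with 32.5, 31.9 and 23.8 CPM in LND and 30.03 to 53.6 CPM (median 35.3) in NL (log2FC -0.38 ± 0.18, adjusted p = 0.101). Dihydrolipoyl dehydrogenase, a subunit of the pyruvate dehydrogenase complex, had 1 gene that fell (POR2889, log2FC -1.38 ± 0.17, adjusted p = 3.31e-06) and 1 that was not called (POR3702, -0.70 ± 0.13). Pyruvate kinase (POR6038, log2FC 0.87 ± 0.10) and another alcohol dehydrogenase gene (POR0637, 0.37 ± 0.09) stayed under the 2-fold limit and were not called. The call of alcohol dehydrogenase POR6665 was less firm than those of POR0764 and POR0986. It was lost without LND replicate 3 (log2FC 1.10, adjusted p = 0.0183), on library totals (log2FC 1.02, adjusted p = 0.0196) and against NL2 alone (log2FC 1.59, adjusted p = 0.0367).

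In lower glycolysis, enolase (POR6343), which makes phosphoenolpyruvate, had 929, 879.6 and 883 CPM in LND and 327 to 373 CPM (median 346) in NL, a 2.56-fold rise (log2FC 1.36 ± 0.09, adjusted p = 5.75e-10). Phosphoglycerate kinase, which makes ATP in glycolysis and uses it in the Calvin cycle, had isoforms that parted. POR4739 rose to 595, 613 and 557 CPM in LND, against 203 to 273 CPM (median 268) in NL (log2FC 1.20 ± 0.10, adjusted p = 2.18e-08). The isoform whose product name is chloroplastic, although the study's prediction left its compartment ambiguous (POR3748), fell to 67.0, 76.9 and 82.8 CPM in LND, against 150.2 to 236 CPM (median 184) in NL (log2FC -1.32 ± 0.15, adjusted p = 2.36e-06). Their count ratio was 6.73 to 8.88 in LND and 1.16 to 1.65 in NL, with no overlap of the groups. An aldolase that the study's prediction places in the chloroplast (POR3181), a Calvin cycle and glycolysis enzyme, had 634, 715 and 890.2 CPM in LND and 1070.3 to 1835 CPM (median 1529.8) in NL. Its log2FC of -0.99 ± 0.16 (adjusted p = 9.76e-05) fell just short of the 2-fold limit.

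In the pentose phosphate pathway, 6-phosphogluconate dehydrogenase, which yields NADPH, likewise had a gene that rose beside one that was not called. POR4685 had 278, 290.3 and 263 CPM in LND and 97.4 to 149 CPM (median 127) in NL (log2FC 1.14 ± 0.12, adjusted p = 2.47e-07). POR4213 had 65.1, 72.1 and 87.2 CPM in LND and 92.9 to 132 CPM (median 118) in NL (log2FC -0.62 ± 0.12, adjusted p = 0.000558), a difference without overlap that stayed under the 2-fold limit. The ratio of the 2 genes was 3.02 to 4.27 in LND and 0.812 to 1.34 in NL.

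Of the respiratory genes, the flavoprotein 1 subunit of complex I (NDUFV1, POR0214), which takes electrons from NADH, had 2729, 2821 and 2836 CPM in LND and 1213 to 1429.5 CPM (median 1254) in NL, a 2.17-fold rise (log2FC 1.12 ± 0.09, adjusted p = 2.06e-08). The other members of this list lay between -1.16 and 1.35 in log2FC.

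**Figure D4:**
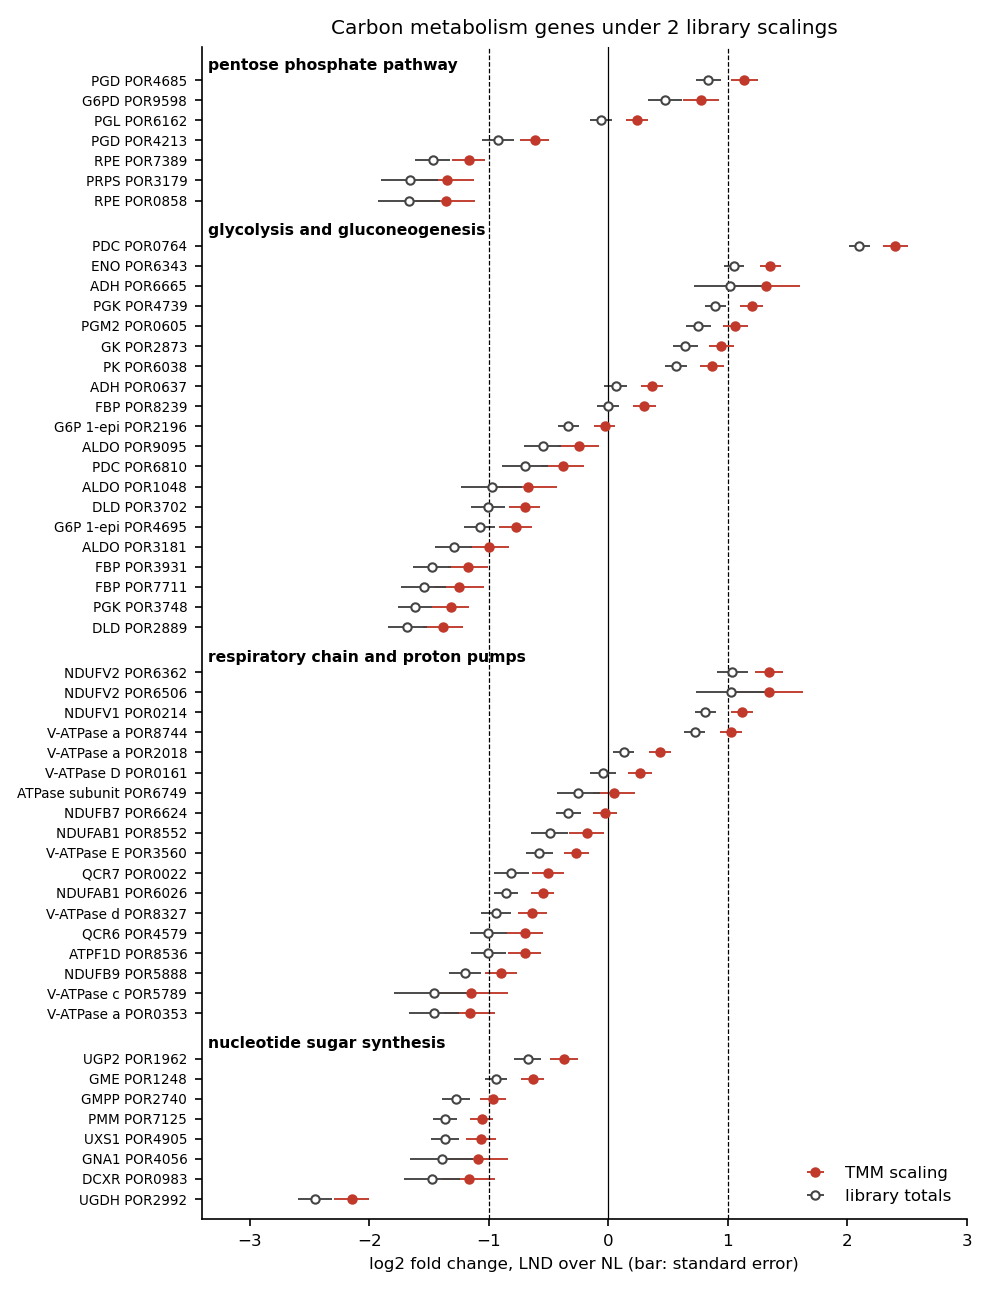
Log2 fold change of LND over NL (horizontal axis, bars are standard errors) of the genes of 4 lists of carbon metabolism, with TMM scaling as red filled circles and library totals as open circles. Dashed lines mark a 2-fold change, PGM2 is drawn once although it is in 2 of the lists, and every gene stands further to the left on library totals.

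Listed genes of nucleotide sugar synthesis, which yields the activated building blocks of the exopolysaccharide, were mainly lower in LND. The list also holds genes of precursor steps. Of 9 genes, listed by the study as changed on these libraries, 1 was higher, 5 were lower and 3 not called (median log2FC -1.06). UDP-glucose 6-dehydrogenase (UGDH, POR2992), which makes UDP-glucuronic acid, had 84.1, 83.1 and 84.5 CPM in LND and 301 to 483 CPM (median 367) in NL, a 4.43-fold decrease (log2FC -2.15 ± 0.15, adjusted p = 2.03e-09). The LND libraries hardly differed, and NL2, at 405 to 483 CPM, was above NL1 at 301 to 328 CPM. The NR libraries, at 57.3, 58.2 and 129 CPM, were also below NL. Mannose-1-phosphate guanylyltransferase (GMPP, POR2740), which makes GDP-mannose, had 51.3, 46.5 and 44.6 CPM in LND and 82.8 to 103 CPM (median 95.3) in NL, and its log2FC of -0.97 ± 0.11 (adjusted p = 8.94e-07) stayed just under the limit. Among the other genes that make or convert a nucleotide sugar, UDP-xylose synthase (UXS1, POR4905) was called lower (log2FC -1.06 ± 0.13). UDP-glucose pyrophosphorylase (UGP2, POR1962, -0.37 ± 0.12) and GDP-mannose epimerase (GME, POR1248, -0.63 ± 0.10) were not called. The member that rose was phosphoglucomutase (PGM2, POR0605), which interconverts glucose 1-phosphate and glucose 6-phosphate and is also in the glycolysis list. It had 231, 198 and 171 CPM in LND and 83.8 to 105 CPM (median 94.7) in NL (log2FC 1.06 ± 0.10, adjusted p = 1.64e-07), and without LND replicate 1 its log2FC was 0.95.

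Carbohydrate-active enzymes (CAZymes) annotated by the study form a list that was not picked by change between these libraries. Their median log2FC was 0.01 beside -0.04 over all genes. Of 89 such genes 88 were tested, of which 3 were higher (3.41%, beside 6.51% of all genes) and 10 lower (11.4%, beside 5.89%). All 10 lower genes were glycosyltransferases, the enzymes that add sugars to a growing chain or acceptor, with 2 higher and 10 lower of 62 tested (median -0.02). Of 26 glycoside hydrolases, which cleave glycosidic bonds, 1 was higher and 0 lower (median 0.02).

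Among the transferases, a member of family GT8 annotated as glucoside xylosyltransferase (POR5778) had 40.3, 37.0 and 34.5 CPM in LND and 101 to 179 CPM (median 145) in NL, a 3.71-fold decrease (log2FC -1.89 ± 0.18, adjusted p = 3.51e-07). A gene annotated as trehalose-phosphate synthase of family GT20 (POR6823) rose 3.27-fold, with 895, 829.8 and 806 CPM in LND and 232 to 300.3 CPM (median 254) in NL (log2FC 1.71 ± 0.09, adjusted p = 9.44e-11). Enzymes of that name start the synthesis of the disaccharide trehalose. The paper asks for functional tests of this annotation, because similar enzymes in another red alga made (iso)floridoside phosphate. The hydrolase that rose, an alpha-galactosidase of family GH36 (POR5976), had 806, 741 and 722 CPM in LND and 229 to 285 CPM (median 244) in NL, a 3.02-fold rise (log2FC 1.59 ± 0.09, adjusted p = 1.65e-10).

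In 6 genes of glycan assembly and starch turnover, listed by the study, 0 were higher and 1 was lower, with a median log2FC of 0.16 that was -0.15 on library totals. The lower gene was a granule-bound starch synthase of family GT5 (POR3626), which extends glucan chains, with 57.8, 58.5 and 58.0 CPM in LND and 90.6 to 144 CPM (median 135) in NL (log2FC -1.13 ± 0.13, adjusted p = 1.18e-06). A glycogen phosphorylase gene (POR6603), which releases glucose units from such chains, had 1169, 1174 and 1028 CPM in LND and 605 to 702 CPM (median 646) in NL. The log2FC of this gene was 0.79 ± 0.09 (adjusted p = 1.28e-06), under the 2-fold limit. For the starch synthase POR3626, part of the study's supplement gives a glycoside hydrolase family instead of GT5.

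The balance of higher and lower genes depended on how the libraries were scaled. With library totals, that is, CPM of all counts with no further factor, 345 genes were higher and 1071 lower, which are 3.77% and 11.7% of the genes tested and 15.5% in either direction. Of the called genes 75.6% were then lower, against 47.5% with TMM. The median log2FC over all genes was -0.34 on library totals and -0.04 with TMM, a shift of -0.31 that applies alike to nearly every gene. Median-of-ratios factors gave 606 higher and 528 lower (6.62% and 5.77% of those tested, with 46.6% of the calls lower), and upper-quartile factors 557 higher and 585 lower (6.09% and 6.39%, with 51.2% of the calls lower). The factors of TMM ran between 0.860 and 0.883 in LND and between 1.03 and 1.14 in NL, so at the same library total a count in LND was worth more than in NL.

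**Figure D5:**
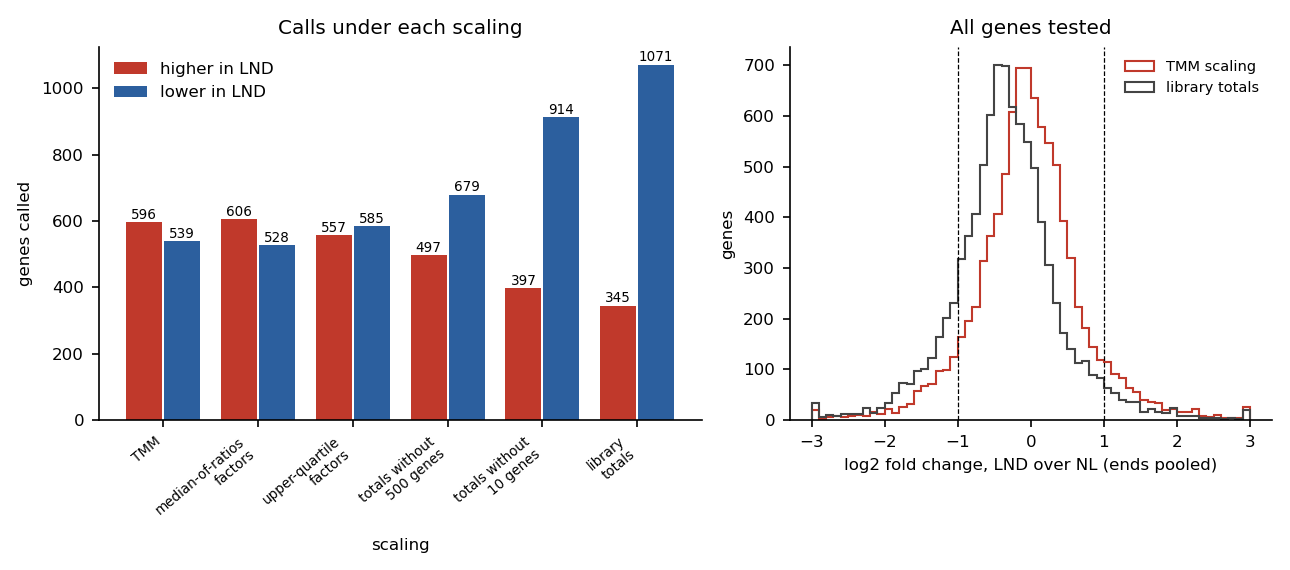
Left, the number of genes called higher (red) and lower (blue) in LND than in NL under each of 6 library scalings. Right, the number of genes tested by log2 fold change of LND over NL with TMM (red line) and with library totals (grey line), where changes beyond 3 in size are pooled in the end bins and the dashed lines mark 2-fold; the 2 distributions have medians of -0.04 and -0.34.

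No gene changed its direction among the calls. All 345 genes that were higher on library totals were also called higher with TMM, all 539 that were lower with TMM were also called lower on library totals, and 0 genes were called in opposite directions. The calls lost were 251 genes that were higher with TMM at a log2FC of 1.00 to 2.49, and the calls gained were 532 lower genes that had a TMM log2FC of -2.96 to -0.69. Under all 6 scalings, 345 genes were higher and 528 lower.

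The abundant transcripts held a larger share of the counts in LND. The 10 genes with the most counts in each library took 11.9 ± 0.504% of its counts in LND (SD, n = 3) and 7.03 ± 0.426% in NL (n = 6), with ranges of 11.4% to 12.3% in LND and 6.48% to 7.51% in NL. This difference of 4.90 percentage points gave a two-sided exact permutation p of 0.0238, the smallest that 3 libraries against 6 can give. When 1 set of 10 genes was used for all libraries, ranked by the mean over the 9 libraries, it took 11.5 ± 0.515% in LND and 6.79 ± 0.387% in NL, a set that some genes enter through their level in LND. The 500 most abundant genes in that ranking took 57.8% in LND and 51.3% in NL. When the totals were computed without the 10 most abundant genes, 397 genes were higher and 914 lower (4.34% and 9.99% of those tested), and without the 500 most abundant genes 497 were higher and 679 lower (5.43% and 7.42%), 2 settings that were added after the data had been seen. The median over all genes then lay at -0.27 and -0.13, between the -0.34 of library totals and the -0.04 of TMM, so most of the shift remained without the 10 genes.

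The change was not even over the range of levels, with genes ranked by their mean over the 9 libraries, a ranking that the levels in LND enter. Among the 100 most abundant genes the median log2FC was 0.32 with TMM, with 29 higher and 20 lower, and among the next 400 it was 0.30, with 101 higher and 46 lower. In the ranks 501 to 2000 the median was 0.05, in 2001 to 5000 it was -0.03, and in the 4153 genes beyond rank 5000 it was -0.09, with 130 higher and 172 lower. On library totals the same classes had medians of 0.02, -0.01, -0.26, -0.33 and -0.40. The 100 most abundant genes held 33.0% of the counts in LND and 27.5% in NL, whereas the genes beyond rank 5000 held 4.97% in LND and 6.25% in NL. Counts give shares of the RNA sequenced, and neither scaling measures the amount of RNA per cell. A lower share of most genes therefore cannot be told apart from an equal amount beside more RNA of a few.

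For the gene groups, the scaling mattered least where the changes were large. On library totals, the nitrogen list again had 1 gene higher and 6 lower (median -1.76) and the photosynthesis list 0 higher and 12 lower (median -1.58), and the list of 31 product-named genes 26 higher and 0 lower. In the carbon lists, higher calls were lost and some lower calls were gained. Of all genes, 3.77% were higher and 11.7% lower under this scaling. Glycolysis and gluconeogenesis had 2 genes higher and 7 lower on library totals, the respiratory chain and proton pumps 1 higher and 5 lower, and the pentose phosphate pathway 0 higher and 3 lower. Nucleotide sugar synthesis had 0 higher and 6 lower. The annotated CAZymes had 3 higher (3.41%, beside 3.77% of all genes) and 11 lower (12.5%, beside 11.7%). Under this scaling their share of lower genes was thus close to that of all genes. Their median was -0.30 beside -0.34 over all genes.

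Single genes near the limit changed sides with the list counts. PGK POR4739 (log2FC 0.90 on library totals), PGD POR4685 (0.84), NDUFV1 (0.81), PGM2 (0.76) and POR7271 (0.70) were no longer called higher. POR3181 (-1.29) and GMPP POR2740 (-1.28) were called lower. Phosphoenolpyruvate carboxykinase (2.72), phototropin-1 (4.62), pyruvate decarboxylase (2.10), UGDH (-2.45), nitrite reductase (-2.64) and LHCA4 POR6098 (-2.06) kept their calls.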

How the data were processed

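Stranded poly(A) mRNA libraries were sequenced as paired ends on an Illumina NovaSeq. Read alignment (STAR 2.7.8a) and counting per gene on version 2 gene models (featureCounts 2.0.1) were done by the authors, and the deposited table holds raw counts without normalization. All its columns matched a sample label (0 unmatched), and the label ND was read as LND. NL1 and NL2 were taken as 1 group, as the comparison sets it.

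Counts were fitted in edgeR 4.0.16 (R 4.3.3) with TMM factors, filterByExpr (minimum count 10) and the robust quasi-likelihood test over all genes. SE values are the absolute log2FC over the square root of F. The common biological coefficient of variation was 18.3%. The NR values were set on the scale of the 9 libraries by 1 factor. The procedure was tested on simulated data. Shares of counts were compared by an exact permutation test. Alternatives were other scalings, DESeq2 1.42.0, other filters, fold limits and models, a replicate block, each NL stage alone and each library left out.

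Gene lists and names come from the study's supplement, since no annotation was used here. Members and lists were chosen with earlier results of these data known. Genes named with values are list members by role (all members allowed for nitrogen and photosynthesis, elsewhere those called or changing call with the scaling, at most 30 in all), the 10 largest changes in each direction among called genes of at least 5 CPM without overlap, the 10 most abundant of each stage, and genes changing call with the scaling. POR9133, POR6665, POR3181, POR2740, POR3626, POR6603, POR6810, POR2889, POR3702, POR6038, POR0637, POR4905, POR1962, POR1248 and POR2049 were chosen after their values were seen, as were the unnamed genes, of which 2 that rose and 2 that fell are given. POR4213, not called with TMM or on library totals, falls outside the rule for list members and is given beside POR4685.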

Additional observations from a re-analysis of the deposited data

Results flagged for a closer look

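Of 47 genes checked over the 6 NL libraries, 2 held a library far from the others, and about 1 in 20 is expected by chance. In NL1 replicate 1, phosphoglycerate kinase POR4739 had 203 CPM, while the other NL libraries had 253 to 273 CPM, all below LND. In NL1 replicate 2, the SH3 domain gene POR9133 had 216 CPM, against 21.7 to 31.6 CPM in the others, which kept it from being called higher in LND.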

How the results depend on the processing

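Besides the 596 higher and 539 lower genes of TMM scaling, library totals gave 345 and 1071, no fold limit 1584 and 1471, a test against a 2-fold change (glmTreat) 274 and 139, and totals without the 10 most abundant genes, a setting chosen after seeing the data like that without 500, 397 and 914. Leaving out each library in turn gave 574 to 608 higher and 470 to 578 lower, and a share difference of 4.53 to 5.00 percentage points for 1 set of the 10 most abundant genes, where p was 0.0714 without an LND library, the smallest that 2 against 6 allows. Each library's own 10 genes, a choice added after seeing the data, gave 4.90 points instead of 4.70. All other settings stayed within 1.5 times, as with the Wald test of DESeq2 (619 and 563), without a count filter (598 and 540) and with all 12 libraries (586 and 534). Over all values and settings, 1294 kept their direction and side of the limit or moved little, 42 lost and 21 gained a call, 62 moved and 5 turned. Those that turned were POR7993 on library totals (-0.0023) and petC (POR2665) on library totals (-0.26) and on totals without 10 genes (-0.19) and without 500 genes (-0.055), while leaving out single libraries gave petC -0.0042 (without LND replicate 3) to 0.12. With replicate number as a block, 600 genes were higher and 526 lower, but the numbers do not pair the samples, since deviations of same-numbered libraries correlated at -0.30 to 0.01 and 0 of 9 pairs exceeded 0.1. Every p rests on libraries that may share 1 culture per stage, so variation between cultures was not measured, and genes with few counts have wide errors.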
